A study of Mus musculus with 4 samples.

Results

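The cells described here are the otic epithelial cells of the E10.5 mouse embryo that carried many transcripts of Gbx2 and Dlx5, the homeobox genes of the dorsal otic vesicle. They were chosen by their transcript counts, as unique molecular identifiers (UMIs), in 2 steps. Otic cells had at least 1 UMI of Epcam, at least 3 of Hmx2, Hmx3, Lmx1a and Oc90 together, none of Trp63 and at most 2 of Neurod1. Of these, the dorsal cells had at least 1 UMI of Gbx2 and at least 4 of Dlx5, with at most 1 of Otx1 and Otx2 together, at most 1 of Rorb, and at most 1 of Sema3e, Aldh1a2 and Mylk3 together. These rules left 1012 dorsal cells of 5278 otic cells and of 14985 cells in all.

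The study compared 2 libraries of conditional knockout (cKO) embryos with 2 libraries of control embryos at E10.5, all labelled Swiss-Webster. The cKO embryos were homozygous for the floxed alleles Tbx2f/f and Tbx3f/f, which the control embryos lacked, and all embryos carried Pax2-Cre and the reporter Rosa26-GFPf/+. Pax2-Cre recombines in the otic lineage and in nearby Pax2-expressing tissue, so that any effect of the driver or of the reporter is shared by all libraries. Otic vesicles with the cochleovestibular ganglion and adjacent tissue from 2 cKO and 3 control embryos were pooled. Live cells with GFP were collected by flow cytometry and captured in droplets with a 10x 3' kit. The labels do not say how embryos were divided between the 2 libraries of a genotype, so p-values measure the spread between libraries, which for the control pair may be technical.

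The otic vesicle is a closed epithelial sac from which the whole inner ear forms. Its dorsal wall receives WNT and BMP signals from the dorsal hindbrain and surrounding tissue, maintains Gbx2 and Dlx5, and gives rise to the endolymphatic duct and sac and to dorsal parts of the semicircular canal apparatus. Mouse embryos without Gbx2 lack the endolymphatic duct, and mouse embryos without Dlx5 have defective canals. Tbx2 and Tbx3 are T-box transcription factors that act mainly as repressors and bind the DNA core TCACACC.

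The numbers of dorsal cells were 118 and 279 in the cKO libraries and 336 and 279 in the control libraries, holding 5048846 and 11376506 UMIs in cKO and 13620441 and 10563331 UMIs in control. The median dorsal cell held 39642 and 37541 UMIs in cKO, against 37619 and 35290 in control. Mitochondrial transcripts made up a median of 1.35% and 1.33% of UMIs in cKO dorsal cells, and of 2.30% and 2.87% in control dorsal cells, a gap between genotypes whose part in the results below was not tested. Library cKO 2 stood apart in Xist, the transcript of the inactive X chromosome. Xist had 259 and 0 CPM in cKO dorsal cells and 307 and 311 CPM in control dorsal cells. The cKO libraries thus did not hold the same embryos in the same proportions. CPM here is the gene's share of the UMIs of those cells, scaled for library composition as explained below. Pairs of libraries shared 2 to 8 cell barcodes.

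The markers named for these cells are Gbx2, Dlx5, Dlx6, Lmx1a, Rspo3 and Aldh1a1. Of these, Gbx2, Dlx5 and Lmx1a were part of the rule, so their high levels are a description only. Gbx2 (chr1:89927956-89931179, minus strand, mm10) had 86.5 and 90.8 CPM in cKO dorsal cells and 134 and 138 CPM in control dorsal cells. Dlx5 (chr6:6877805-6882085, minus strand) had 203 and 215 CPM in cKO dorsal cells and 202 and 209 CPM in control dorsal cells. Gbx2 levels did not overlap between genotypes in cells chosen for Gbx2, whereas Dlx5 levels did. Levels by genotype here and below are CPM of all transcripts of a group of cells in a library, scaled with TMM (trimmed mean of M values, a correction for library composition), unless they are said to be per total UMI.

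The markers that the rule did not use sat in the same cells. Dlx6, the gene beside Dlx5 with which it shares enhancers, was 1.77 to 2.96 times as high in dorsal as in other otic cells across the 4 libraries. Rspo3, a secreted amplifier of WNT signals, was 4.01 to 5.67 times as high, and Aldh1a1, a retinaldehyde dehydrogenase, 3.30 to 5.13 times as high. These ratios were taken within each library, per total UMI, with 1 CPM added to both values. They carry no test, because the cells were chosen from the same transcriptomes. All 3 markers lay higher in dorsal cells in each library, which is a description and not support for the name of these cells.

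After each cell was thinned to 15000 UMIs, Rspo3 had a UMI in 46.6% and 51.8% of cKO dorsal cells and in 50.5% and 54.9% of control dorsal cells, compared with 9.06% and 10.9% of cKO and 17.3% and 21.9% of control cells in the rest of the otic gate. Aldh1a1 had a UMI in 38.8% and 35.97% of cKO dorsal cells and in 30.6% and 27.4% of control dorsal cells. Leukocytes of the same libraries, which should lack both genes, showed Rspo3 in 0% and 0% of cKO cells and in 2.22% and 5.26% of control cells, and Aldh1a1 in none of 55 and 50 cKO and 45 and 38 control cells. Median depths of the leukocytes before thinning were 51477 and 37492 UMIs in cKO and 40596 and 38358.5 UMIs in control. The dorsal shares lay well above these background shares.

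**Figure D1:**
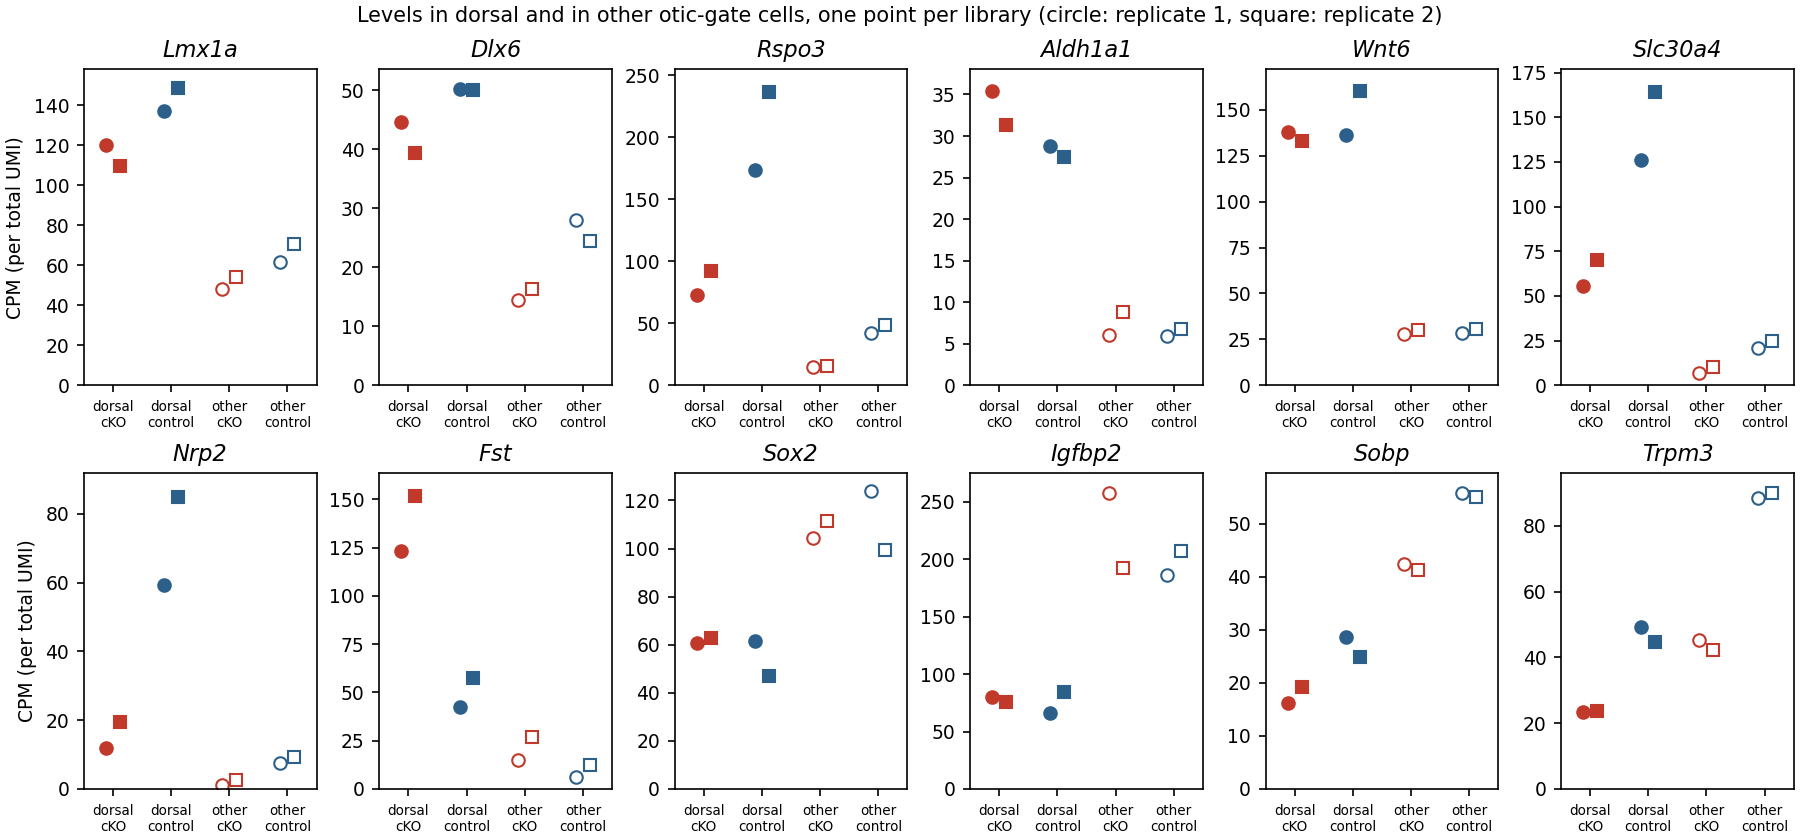
Level of 12 genes in dorsal cells (filled) and in other otic-gate cells (open) of cKO (red) and control (blue) libraries, in CPM per total UMI on linear axes from 0, with 1 point per library. Lmx1a is part of the rule; Dlx6, Rspo3, Aldh1a1, Wnt6, Slc30a4, Nrp2 and Fst lie higher and Sox2, Igfbp2, Sobp and Trpm3 lower in the dorsal cells of each library.

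Lists of markers of other cells that the sort could hold differed widely in level. The 4 endothelial markers together reached 0.396 and 0.176 CPM in cKO dorsal cells and 0.587 and 0.663 CPM in control dorsal cells, per total UMI. The 6 hindbrain markers together reached 3.96 and 4.75 CPM in cKO and 1.47 and 6.25 CPM in control, with Sox1 and Dbx1 at 0 in both cKO libraries. The 5 markers of pharyngeal endoderm together reached 3.37 and 0.527 CPM in cKO and were at 0 in both control libraries, with Foxa2, Shh and Nkx2-1 at 0 in each library; the part of this gap in the results was not tested. The 4 erythroid markers together reached 0.198 and 2.11 CPM in cKO and 0.294 and 0.0947 CPM in control. The 7 placodal neuron markers, of which the rule limited Neurod1, summed to 96.1 and 81.0 CPM in cKO and 80.5 and 86.9 CPM in control. The 5 leukocyte markers together reached 2.38 and 24.8 CPM in cKO and 3.74 and 4.45 CPM in control. The 6 mesenchymal markers summed to 13.5 and 1.23 CPM in cKO and 2.28 and 15.3 CPM in control. Of the surface ectoderm markers, Trp63 was kept at 0 by the rule, and Krt14 was at 0 in each library. The list summed to 163 and 144 CPM in cKO and 174 and 184 CPM in control. Wnt6 alone made up 138 and 133 CPM of this sum in cKO and 136 and 161 CPM in control. The neural crest and glial list summed to 104 and 105 CPM in cKO and 153 and 162 CPM in control, a gap between genotypes whose part in the results was not tested. The 9 otic markers, 4 of which the rule used, summed to 1459 and 1443 CPM in cKO and 2063 and 1980 CPM in control.

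The dorsal cells made up 15.3% and 21.2% of the otic cells in the cKO libraries and 19.9% and 18.5% in the control libraries. Exact binomial 95% intervals, which cover counting error only, were 12.8% to 18.0% and 19.1% to 23.6% in cKO, and 18.1% to 21.9% and 16.6% to 20.5% in control. The genotypes overlapped, and a two-sided exact permutation test of 2 libraries against 2 cannot reach a p under 0.05. Since a threshold of 4 UMIs is easier to pass in a deeper cell, the gate was also applied after thinning to 15000 UMIs, which left 24 and 56 dorsal cells in cKO and 103 and 109 in control. The shares were then 6.56% and 8.48% of otic cells in cKO and 7.95% and 9.34% in control, and again overlapped. Of all cells past the filter, dorsal cells were 3.53% and 7.23% in cKO and 8.35% and 7.43% in control; in this denominator both cKO libraries lay below both control libraries, with library cKO 2 close to the controls.

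**Figure D2:**
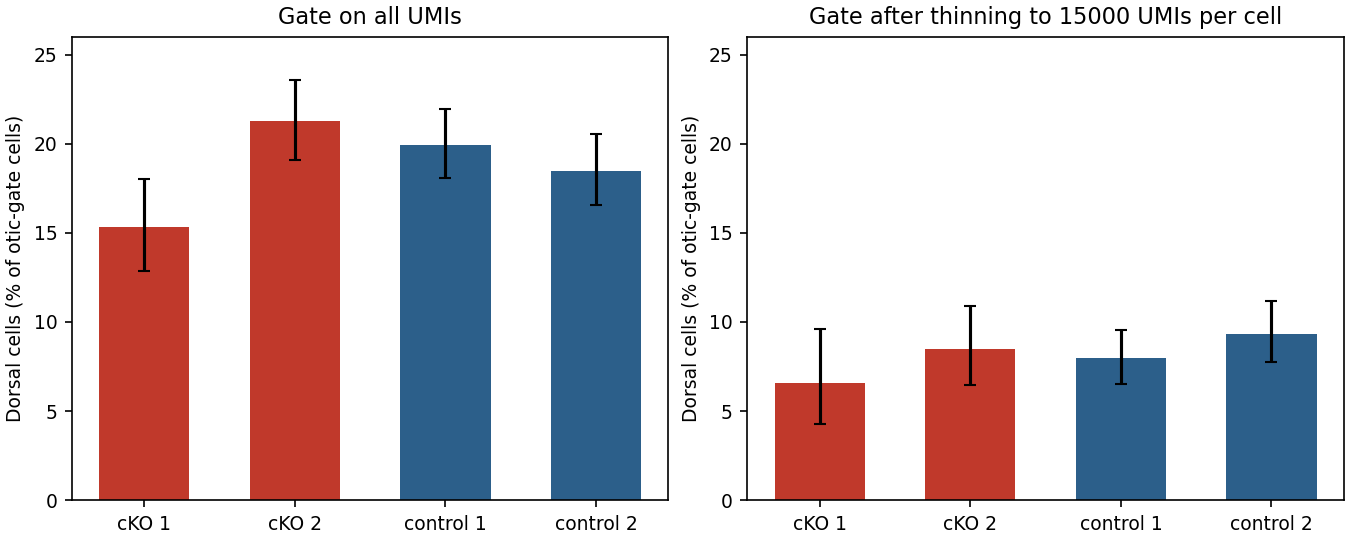
Dorsal cells as a percentage of otic-gate cells in each library (cKO red, control blue), gated on all UMIs (left) and after thinning each cell to 15000 UMIs (right). Bars are shares and error bars exact binomial 95% intervals for counting error; the genotypes overlap in both panels, with shares of 15.3% to 21.2% on all UMIs and 6.56% to 9.34% after thinning.

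The steps of the rule took different cells from the 2 genotypes. Of cells with Epcam, 39.1% and 45.7% in cKO and 60.3% and 65.8% in control passed the limit on Hmx2, Hmx3, Lmx1a and Oc90 together. Oc90 was itself lower in cKO dorsal cells, as given below. This step also sets the number of otic cells by which the shares above are divided, and its part in the results was not tested. Of otic cells, 230 of 771 and 580 of 1313 in cKO and 554 of 1685 and 487 of 1509 in control had Gbx2. The limit on Sema3e, Aldh1a2 and Mylk3 then removed 4 and 7 cells in cKO and 24 and 19 cells in control, and the limits on Otx1, Otx2 and Rorb removed none in cKO and 8 and 5 in control. Cells just outside the rule shared part of the profile. Those with Gbx2 but only 2 or 3 UMIs of Dlx5 had Rspo3 at 35.7 and 20.2 CPM in cKO and 76.0 and 95.7 CPM in control, per total UMI. Members with 4 or 5 UMIs of Dlx5 had Rspo3 at 44.1 and 52.2 CPM in cKO and 101 and 167 CPM in control. Cells with at least 4 UMIs of Dlx5 and no Gbx2 had Bmp4, which marks the lateral wall and the cristae to come, at 107 and 114 CPM in cKO and 118 and 109 CPM in control. The members with 1 UMI of Gbx2 had Bmp4 at 27.0 and 19.4 CPM in cKO and 51.6 and 26.05 CPM in control.

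Within the dorsal cells, levels differed between bins of Gbx2 counts. Tbx3 was at 5.48 and 7.17 CPM in cKO members with 4 or more UMIs of Gbx2 and at 16.2 and 16.3 CPM in such control members, per total UMI. In members with 1 UMI of Gbx2, Tbx3 was at 16.0 and 14.1 CPM in cKO and at 57.5 and 62.4 CPM in control. Msx1 ran in opposite directions in the 2 genotypes. In members with 4 or more UMIs of Gbx2 it was at 127 and 96.1 CPM in cKO and 43.8 and 48.7 CPM in control, and in members with 1 UMI at 51.0 and 53.3 CPM in cKO and 74.5 and 82.9 CPM in control. These bins come from the same libraries but were set on unthinned counts, so that a deeper cell reaches 4 UMIs more easily. The bins of 1 UMI hold only 26 and 67 cKO and 48 and 39 control cells. All these values are therefore given as a description. Across dorsal cells, Spearman's rho between Dlx5 and Rspo3 at equal depth was 0.18 and 0.23 over 116 and 278 cKO cells and 0.41 and 0.44 over 333 and 277 control cells. Between Gbx2 and Tbx3, rho over the same cells was -0.03 and -0.01 in cKO and -0.14 and -0.12 in control.

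Few genes differed at least 2-fold between dorsal and other otic cells in each library. Of 5723 genes with a mean of at least 20 CPM in either population, 48 (0.839%) were at least 2-fold higher and 20 (0.349%) at least 2-fold lower in dorsal cells in each of the 4 libraries. By direction alone, 1140 (19.9%) were higher and 1464 (25.6%) lower in dorsal cells in each library. Genes of the rule were not left out of these counts. With no test, these counts describe the gate. The gene with the highest lowest ratio was Slc30a4, a zinc transporter, which was 5.83 to 7.10 times as high in dorsal cells. It had 55.5 and 70.1 CPM in cKO and 126 and 164 CPM in control dorsal cells, per total UMI.

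The genes that followed had varied functions. Some encode secreted signals and their modifiers, Wnt6 (4.29 to 5.13 times as high), the activin and BMP antagonist Fst (4.28 to 7.88 times), Rspo3, and Apcdd1, a WNT inhibitor (2.80 to 4.91 times). Aldh1a1 was again among them, and so were Rdh10, which makes retinaldehyde from retinol (3.00 to 8.14 times), Nrp2, a semaphorin and VEGF co-receptor (5.82 to 8.25 times), and Gfra1, a GDNF co-receptor (2.76 to 5.65 times). The others among the 20 highest were Snx7, Lhfp, Lrrtm1, Fxyd3, Elf1, C1ql1, Vnn1, Slc25a21, Tln2, Klhl8 and the non-coding Meg3. Among the genes that were lower were Sox2, a factor of the neurogenic and sensory side (0.48 to 0.59 times), and with it Igfbp2, Sobp, Trpm3, Car14, Plekho1, Gm266 and Mir100hg.

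The targeted genes come first in the comparison of genotypes. Tbx3 (chr5:119670669-119684724, plus strand) had 8.30 and 9.58 CPM in cKO dorsal cells and 22.1 and 21.5 CPM in control dorsal cells, a log2 fold change of -1.26 ± 0.14 (SE, n = 2 libraries each; edgeR quasi-likelihood test, Benjamini-Hochberg adjusted p = 0.00015). Here and below, the SE is the size of the log2 fold change divided by the square root of the F statistic of this test. It is not the plain spread of the 2 libraries. Tbx2 (chr11:85832551-85841948, plus strand) had 60.2 and 63.9 CPM in cKO dorsal cells and 92.0 and 105 CPM in control dorsal cells (log2 fold change -0.66 ± 0.10, edgeR adjusted p = 0.00097). Both were lower in each cKO library than in either control library, and both were still detected. Which exons are removed is not given in the labels, and a 3' tag outside the deleted part does not check recombination. With the gate on thinned counts, the fold of Tbx3 was -0.69 and no longer passed (edgeR adjusted p = 0.195).

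Tbx3 was low in the dorsal wall of either genotype. In other otic cells Tbx3 stood at 29.2 and 22.9 CPM in cKO and at 83.4 and 75.4 CPM in control, so that dorsal cells held 0.27 to 0.44 of that level within a library. Tbx2 was at 0.82 and 0.89 of the other otic level in cKO and at 1.06 and 1.17 in control. The fall of Tbx2 was larger in dorsal than in other otic cells, with a difference of log2 fold changes of -0.37 ± 0.08 (edgeR interaction term, adjusted p = 0.0079), a call that was lost without control 2 (adjusted p = 0.05046), with DESeq2 (0.1025) and with the gate on thinned counts (0.443). The difference of Tbx3 was 0.44 ± 0.16 and did not pass (edgeR adjusted p = 0.13). All 4 T-box genes tested fell in dorsal cells, where 11.5% of all genes tested fell. The other two were Tbx1 (log2 fold change -0.88, edgeR adjusted p = 0.0087) and Mga (-0.31, adjusted p = 0.047). Without control 1, Tbx1 was at -0.58 (adjusted p = 0.0548) and Mga at -0.22 (adjusted p = 0.192), and without cKO 2 Mga was at -0.23 (adjusted p = 0.310).

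Of 12718 genes tested in dorsal cells, 3196 (25.1%) differed between cKO and control at an edgeR adjusted p under 0.05. They split into 1739 higher (13.7%) and 1457 lower (11.5%) in cKO, and 545 (4.29%) changed over 2-fold. The count was 1588 with DESeq2, with 64.4% of them higher, against 54.4% in edgeR. It was 1851 without cKO 2, 2091 without control 2 and 561 with the gate on thinned counts, which leaves far fewer cells. In other otic cells 5353 of 14721 genes (36.4%) passed, and 1053 (7.15%) changed over 2-fold. Of the 12690 genes tested in both populations, 2396 were called in both, which is 75.2% of the dorsal calls and 48.5% of the other otic calls, and 44 of them had opposite signs. Dorsal and other cells come from the same libraries, so these 2 contrasts are not independent.

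Among genes with at least 20 CPM and no overlap between genotypes, the steepest rises in dorsal cells were Pcp4 and Pax3. Pax3 (chr1:78101267-78197134, minus strand), a paired-box factor of the dorsal neural tube and neural crest, had 31.3 and 22.7 CPM in cKO dorsal cells and 0.356 and 1.07 CPM in control dorsal cells (log2 fold change 5.25 ± 0.31, edgeR adjusted p = 2.1e-06). Pcp4, a calmodulin-binding peptide, had 32.2 and 31.2 CPM in cKO and 0.214 and 0.894 CPM in control (5.90 ± 0.28, edgeR adjusted p = 2.6e-07). The genotypes lay far apart for both genes. The control values rest on 5 and 12 UMIs of Pax3 and 3 and 10 UMIs of Pcp4.

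Pax3 came from many cells. A UMI of Pax3 was found in 48 of 118 and 115 of 279 cKO dorsal cells, against 5 of 336 and 7 of 279 control dorsal cells. At 15000 UMIs per cell these shares were 22.4% and 24.8% in cKO and 0.601% and 1.44% in control. In other otic cells the thinned shares of Pax3 were 2.07% and 2.98% in cKO and 0.462% and 0.439% in control, and in leukocytes they were 0% in each library. Pcp4 had a UMI in 31.0% and 31.7% of cKO and 0.601% and 1.81% of control dorsal cells at that depth, and in 13.2% and 15.9% of cKO and 1.92% and 1.58% of control other otic cells. Both genes thus spread over about as large a share of the dorsal cells of cKO 1 as of cKO 2.

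Levels of Pax3 differed between bins of Gbx2 counts among the cKO dorsal cells. Gbx2 was part of the rule, the groups of cells in this paragraph were set on unthinned counts, and few cells had 1 UMI, as given above. The values are a description, and position in the wall was not measured. Pax3 stood at 38.4 and 27.3 CPM in cKO members with 4 or more UMIs of Gbx2 and at 4.997 and 14.1 CPM in cKO members with 1 UMI, per total UMI. Cells with Dlx5 but no Gbx2 had 5.05 and 1.24 CPM in cKO. In cKO members with Pax3, Msx1 was at 121 and 109 CPM and Tbx3 at 4.30 and 6.19 CPM, compared with 71.4 and 64.3 CPM of Msx1 and 10.49 and 11.3 CPM of Tbx3 in cKO members without it. Rspo3 differed less, with 76.9 and 85.8 CPM in cKO members with Pax3 and 69.4 and 96.5 CPM in those without. At equal depth, Spearman's rho between Pax3 and Msx1 across dorsal cells was 0.04 in cKO 1 and 0.19 in cKO 2. Hes5, the only hindbrain marker called in dorsal cells, had 3.11 and 3.41 CPM in cKO dorsal cells and 0.855 and 1.79 CPM in control dorsal cells. Its call (edgeR adjusted p = 0.031) was lost with DESeq2 (adjusted p = 0.150), without cKO 2 (log2 fold change 1.25) and without control 1 (0.88). The summed hindbrain markers given above overlapped between genotypes.

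**Figure D3:**
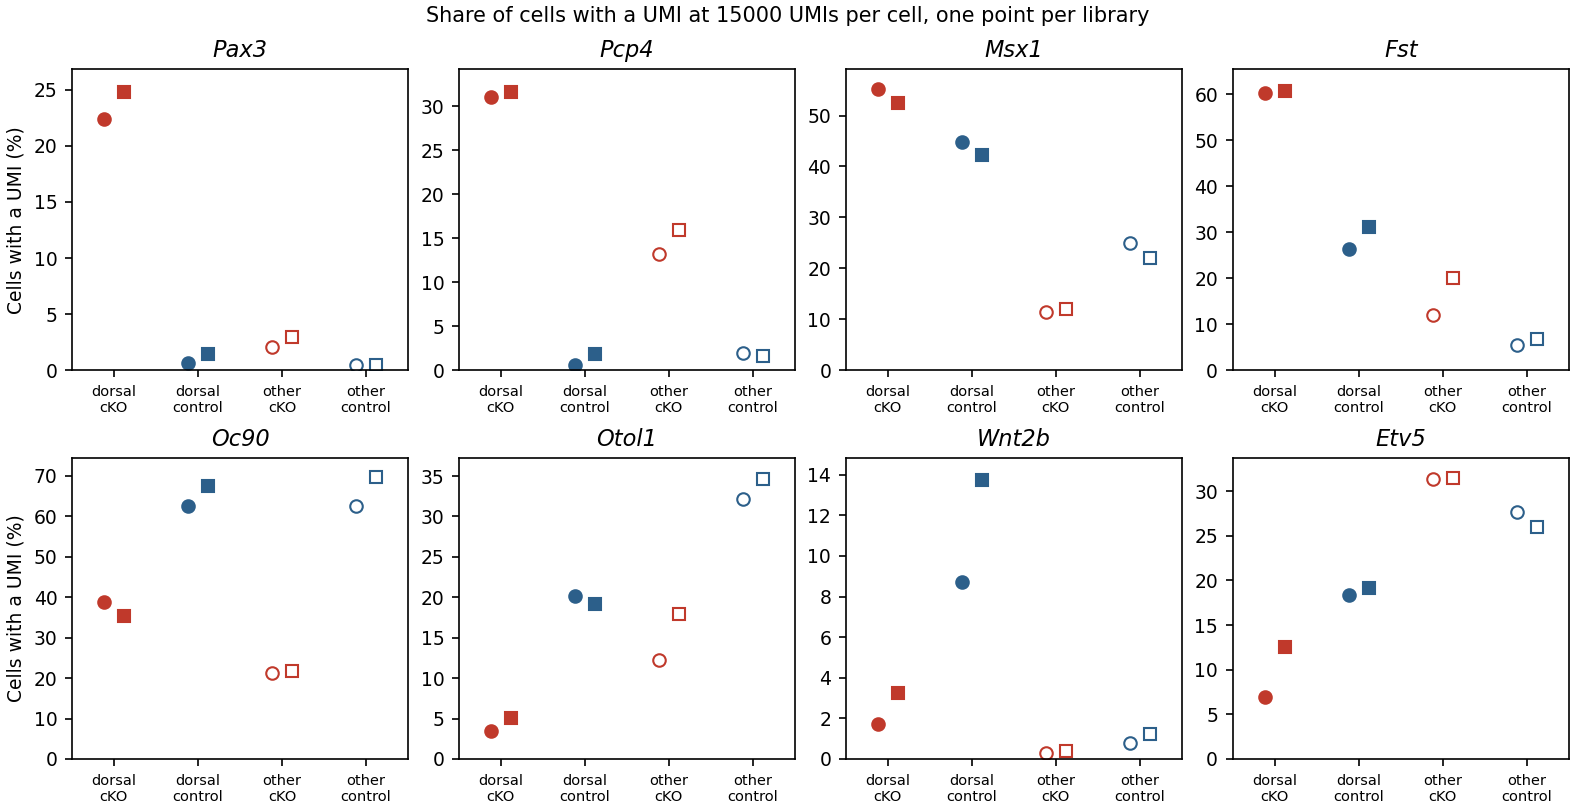
Percentage of cells with at least 1 UMI of 8 genes after thinning each cell to 15000 UMIs, in dorsal (filled) and other otic-gate (open) cells, cKO red and control blue, with 1 point per library (circle replicate 1, square replicate 2). Pax3 is found in 22.4% and 24.8% of cKO dorsal cells and in at most 2.98% of the cells of any other group; Oc90 was used by the rule.

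Among the other steep rises, Prrx2, a homeobox gene known from mesenchyme, had 29.3 and 36.2 CPM in cKO dorsal cells and 7.19 and 4.29 CPM in control dorsal cells (log2 fold change 2.51 ± 0.19, edgeR adjusted p = 1.0e-05). Prrx2 was higher in other otic cells of each library, with 182 and 153 CPM in cKO and 76.2 and 55.4 CPM in control. It is thus also a gene of the otic cells outside the dorsal gate, and their part in its dorsal rise was not tested. The summed mesenchymal markers given above overlapped between genotypes. The metallothioneins Mt2 (2.93 ± 0.22) and Mt1 (2.23 ± 0.17), which bind zinc and copper, rose, and Mt3 at 0.33 ± 0.30 did not pass. Igfbpl1, Pcolce2, Tubb6, Gjb2 and the chemokine Cxcl12 rose by 1.88 to 2.23 on the log2 scale, with no overlap between genotypes. Wscd1 (chr11:71749920-71789647, plus strand) had 31.1 and 22.1 CPM in cKO and 6.70 and 7.33 CPM in control dorsal cells (1.88 ± 0.18, edgeR adjusted p = 3.7e-05). In other otic cells Wscd1 stood at 8.54 and 8.28 CPM in cKO and 7.72 and 8.43 CPM in control.

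Among reported genes with at least 20 CPM and no overlap between genotypes, Otol1, an otoconial matrix protein, fell most steeply. It had 2.49 and 4.51 CPM in cKO dorsal cells and 21.8 and 29.9 CPM in control dorsal cells (log2 fold change -2.74 ± 0.23, edgeR adjusted p = 2.0e-05). Pid1 followed with 4.98 and 6.17 CPM in cKO and 32.2 and 36.9 CPM in control (-2.58 ± 0.16). Nfib, a nuclear factor I transcription factor, had 5.19 and 5.07 CPM in cKO and 21.7 and 32.2 CPM in control (-2.39 ± 0.22). Gfra1, Nrp2, the desmosomal Dsp, Slitrk6, the integrin Itga4, Mir100hg and Zbtb20 fell by 1.77 to 2.07 on the log2 scale. Gfra1 and Nrp2 are 2 of the 20 genes that set dorsal cells apart most.

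Ubb rose (log2 fold change 3.18 ± 0.11) while Gm8797 (-1.82 ± 0.16) fell. Gm8797 is 98.2% identical to Ubb over 384 bases, so reads may be split between the copies, and these folds are uncertain. Ubb and Gm8797 together had 2638 and 2745 CPM in cKO dorsal cells and 2081 and 2046 CPM in control dorsal cells. Ubb alone had 2017 and 2100 CPM in cKO other otic cells, against 206 and 242 CPM in control other otic cells. In leukocytes Ubb had 849 and 998 CPM in cKO and 114 and 160 CPM in control, per total UMI. Gm8797 had 395 and 252 CPM in cKO leukocytes and 893 and 1069 CPM in control leukocytes, per total UMI. These gaps were thus not confined to dorsal cells, and their cause was not tested.

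**Figure D4:**
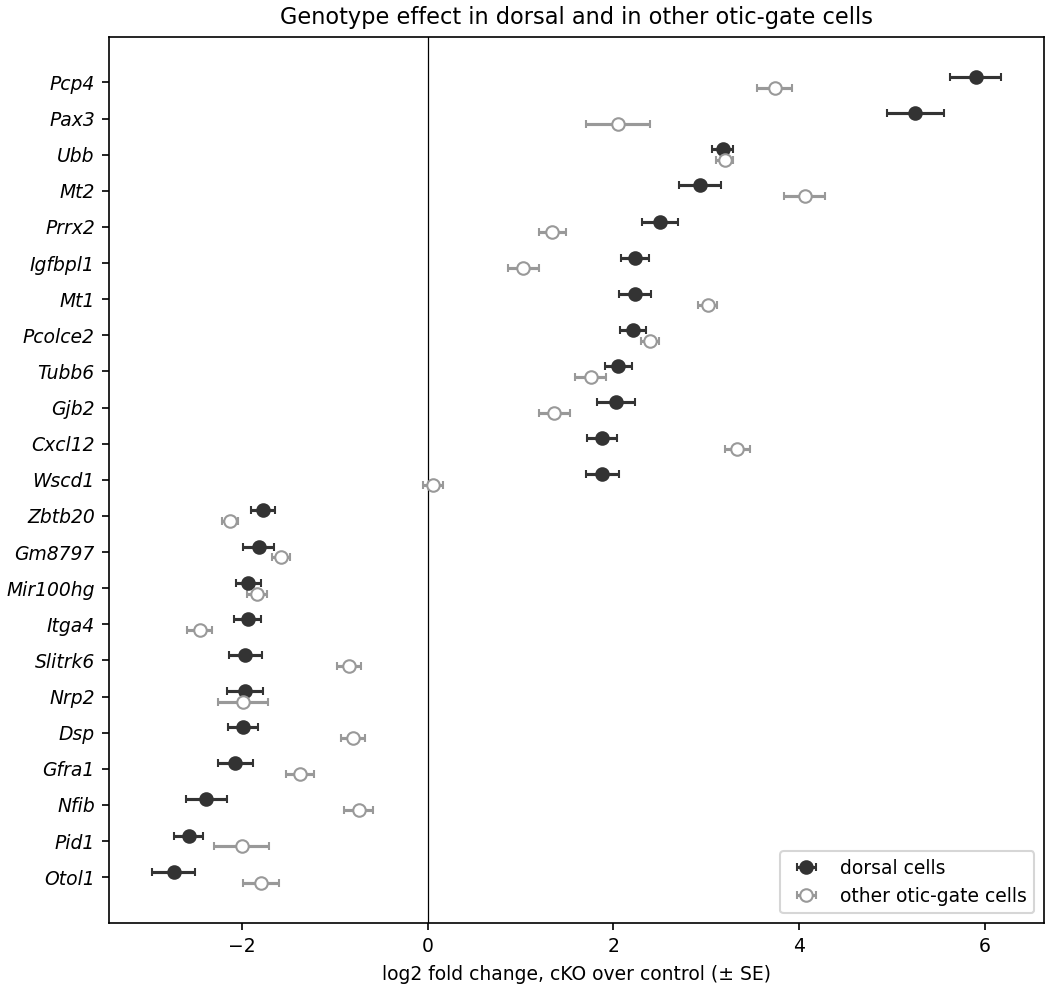
Log2 fold change of cKO over control, with its standard error, in dorsal cells (dark) and other otic-gate cells (open, grey), from edgeR fits on 2 libraries per genotype. The genes are the reported steepest rises and falls in dorsal cells among those with at least 20 CPM and no overlap between genotypes. Pax3 is at 5.25 in dorsal and 2.05 in other otic cells, and Wscd1 at 1.88 and 0.06.

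Since the deleted factors bind TCACACC, the start regions of the named genes were searched for it on both strands (the reverse complement reads GGTGTGA). Of 81 named genes 54 had a RefSeq window of 300 bases around the start, and 8 of the 54 held the core, as did 4.60% of 27025 mouse genes with such windows. They were Aldh1a1, Itga4, Meg3, Mir100hg, Mt2, Nrp2, Svopl and Wscd1. The longer form TCACACCT, on either strand, was in 1.48% of these mouse genes and, among named genes, in Aldh1a1 and Meg3. A match is a run of letters and was not tested as a binding site. The windows of Aldh1a1 (chr19:20492333-20492632, plus strand), which is high in dorsal cells, of Nrp2 (chr1:62703067-62703366, plus strand), which is high in dorsal cells and fell, and of Wscd1 (chr11:71750435-71750734, plus strand), which rose in dorsal cells, are shown from RefSeq on GRCm38.p6, 5′ to 3′, with the match in capitals:
Aldh1a1: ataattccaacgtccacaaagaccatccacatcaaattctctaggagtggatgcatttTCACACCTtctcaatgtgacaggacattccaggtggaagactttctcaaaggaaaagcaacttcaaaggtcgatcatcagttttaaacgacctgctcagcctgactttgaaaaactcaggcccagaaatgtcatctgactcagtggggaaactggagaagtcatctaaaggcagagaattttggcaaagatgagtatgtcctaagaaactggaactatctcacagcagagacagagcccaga
Nrp2: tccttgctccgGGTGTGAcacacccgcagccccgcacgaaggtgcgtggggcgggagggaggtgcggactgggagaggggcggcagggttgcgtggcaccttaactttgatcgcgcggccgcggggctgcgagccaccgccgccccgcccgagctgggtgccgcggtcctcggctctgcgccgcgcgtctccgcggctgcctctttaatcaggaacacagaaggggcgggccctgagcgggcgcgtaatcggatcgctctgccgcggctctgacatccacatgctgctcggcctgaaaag
Wscd1: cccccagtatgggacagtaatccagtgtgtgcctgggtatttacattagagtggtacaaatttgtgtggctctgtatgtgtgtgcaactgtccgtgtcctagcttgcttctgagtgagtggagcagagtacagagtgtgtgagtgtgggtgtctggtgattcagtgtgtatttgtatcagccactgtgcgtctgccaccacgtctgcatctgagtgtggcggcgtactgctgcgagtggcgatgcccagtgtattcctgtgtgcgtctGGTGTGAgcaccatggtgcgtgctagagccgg

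The dorsal patterning genes moved in both directions. Of 9 tested that the rule did not use, 2 rose, 3 fell and 4 did not pass, against 13.7% higher and 11.5% lower of all genes tested. The median log2 fold change of the 9 was -0.39, against -0.01 over all genes tested. Msx1 (chr5:37820485-37824583, minus strand), a BMP-responsive homeobox gene, had 96.5 and 87.5 CPM in cKO dorsal cells and 52.6 and 50.0 CPM in control dorsal cells (0.83 ± 0.09, edgeR adjusted p = 0.00015). Msx2 had 27.2 and 29.8 CPM in cKO and 43.3 and 50.2 CPM in control (-0.70 ± 0.11, edgeR adjusted p = 0.0017). The pair of Msx genes thus moved apart.

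Rspo3 (chr10:29452416-29535867, minus strand) fell to 75.9 and 96.3 CPM in cKO dorsal cells, against 168 and 223 CPM in control dorsal cells (-1.17 ± 0.14, edgeR adjusted p = 0.00022). Wnt2b had 0.830 and 1.84 CPM in cKO and 5.63 and 9.29 CPM in control (-2.28 ± 0.37, edgeR adjusted p = 0.0015). Rspo3 was on in about as many dorsal cells of either genotype at 15000 UMIs, as given above, whereas Wnt2b had a UMI in 1.72% and 3.24% of cKO and in 8.71% and 13.7% of control dorsal cells. Aldh1a1 had 37.1 and 32.8 CPM in cKO and 27.9 and 25.9 CPM in control dorsal cells (0.36 ± 0.11, edgeR adjusted p = 0.037). Its call was lost without cKO 1 (adjusted p = 0.117), without control 2 (adjusted p = 0.142) and with DESeq2, and its sign turned with the gate on thinned counts (-0.20). Dlx6 at 46.7 and 41.2 CPM in cKO and 48.7 and 47.3 CPM in control did not pass (-0.14 ± 0.10, edgeR adjusted p = 0.33).

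The endolymphatic and nonsensory genes fell. Of 8 tested that the rule did not use, 7 fell and none rose (background 11.5% lower and 13.7% higher), with a median log2 fold change of -1.85, and Clic6 at -0.42 ± 0.26 did not pass. Foxi1, a forkhead factor needed for ion transport in the mouse endolymphatic sac, had 1 and 0 UMIs in cKO dorsal cells and 31 and 20 UMIs in control dorsal cells (edgeR adjusted p = 0.0028). Gata2, a zinc-finger factor of canal development, had 1.87 and 2.03 CPM in cKO and 9.05 and 5.45 CPM in control (-1.89 ± 0.32, edgeR adjusted p = 0.0019). The retinaldehyde dehydrogenase Aldh1a3 had 22.6 and 19.5 CPM in cKO and 45.0 and 62.9 CPM in control (-1.37 ± 0.16, edgeR adjusted p = 0.00018). Otol1 and Wnt2b are given above, and Cldn22 and Gata3 made up the rest. The call of Cldn22 was lost without control 2 (adjusted p = 0.1175). With the gate on thinned counts Gata2 (adjusted p = 0.209) and Aldh1a3 (adjusted p = 0.0714) did not pass and Gata3 turned to 0.29. The call of Gata3 was also lost without cKO 1, without control 1 and without control 2 (adjusted p = 0.196, 0.116 and 0.0751). Oc90, the main otoconial protein and part of the rule, is given as a description, at 75.3 and 46.9 CPM in cKO and 311 and 300 CPM in control dorsal cells.

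Genes of the BMP pathway moved in both directions. Of 21 tested, 5 rose, 6 fell and 10 did not pass, against 13.7% higher and 11.5% lower of all genes tested, and 8 of the 11 calls held without each library in turn. The secreted antagonists Fst and Nog rose. Fst had 129 and 159 CPM in cKO dorsal cells and 41.3 and 54.2 CPM in control dorsal cells (1.61 ± 0.13, edgeR adjusted p = 1.7e-05). Nog had 13 and 25 UMIs in cKO and 1 and 1 UMIs in control dorsal cells (edgeR adjusted p = 0.00064). Counts this low in control give a direction more than a size. The receptors Bmpr2 (-0.86 ± 0.12) and Bmpr1a (-0.50 ± 0.10) and the inhibitors Smad7 (-0.59 ± 0.12) and Bambi (-0.54 ± 0.10) fell, as did Msx2, while Msx1 rose. Bmper (0.63 ± 0.17), Id1 (0.48 ± 0.14) and Smad5 (-0.45 ± 0.13) passed, but the call of Bmper was lost without cKO 2 (adjusted p = 0.336) and without control 1 (adjusted p = 0.0909), that of Id1 without control 2 (adjusted p = 0.107), and that of Smad5 without cKO 2 (adjusted p = 0.0945) and without control 2 (adjusted p = 0.129). With DESeq2, the calls of Bmper (adjusted p = 0.164), Id1 (0.272) and Smad5 (0.143) were lost. The ligands Bmp4 (-0.39 ± 0.21), Bmp7 (-0.27 ± 0.14), Bmp2 (0.60 ± 0.32) and Bmp5 (0.18 ± 0.38) did not pass.

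Several of these genes changed otherwise in the rest of the otic epithelium. Of 14228 genes tested for a difference between the genotype effects in the 2 populations, 849 (5.97%) passed, and in 218 (1.53% of those tested) the difference was over 2-fold. They comprised 432 (3.04%) with a larger log2 fold change in dorsal cells and 417 (2.93%) with a smaller one. Of 23 BMP genes tested, 9 had the larger value in dorsal cells and none the smaller. Msx1 stood at 15.3 and 16.4 CPM in cKO other otic cells and 35.9 and 30.9 CPM in control other otic cells, a log2 fold change of -1.07 ± 0.10. Its difference between populations was 1.92 ± 0.10 (edgeR interaction term, adjusted p = 6.0e-09). Bmper (difference 1.88, adjusted p = 1.6e-05), Id1 (0.95, adjusted p = 8.8e-07) and Id3 (0.82, adjusted p = 2.3e-06) differed likewise, with log2 fold changes of -1.23, -0.43 and -0.76 in other otic cells. The remaining 5 were Nog, Bmp5, Id2, Smad7 and Bambi. Those of Smad7, Id2, Bambi and Nog were lost without cKO 2 (adjusted p = 0.354, 0.131, 0.271 and 0.0582), and that of Nog also without control 2 (adjusted p = 0.0631). With the gate on thinned counts, those of Nog, Bmp5, Smad7 and Bambi were lost (adjusted p = 0.761, 0.312, 0.834 and 0.857). With DESeq2, those of Nog, Bmp5, Id2, Smad7 and Bambi were lost (adjusted p = 0.222, 0.0693, 0.6815, 0.479 and 0.193).

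FGF pathway genes showed the opposite pattern. Of 20 tested for the difference, none had the larger log2 fold change in dorsal cells and 9 had the smaller, and 8 of the 9 held without each library in turn. Etv4 and Etv5 are ETS factors switched on by FGF signals. Etv5 had 6.43 and 10.4 CPM in cKO dorsal cells and 18.5 and 18.9 CPM in control dorsal cells (-1.06 ± 0.18, edgeR adjusted p = 0.0019), and its log2 fold change in other otic cells was 0.33. Etv4 had 2.91 and 5.16 CPM in cKO and 8.19 and 6.88 CPM in control dorsal cells (-0.79 ± 0.25, edgeR adjusted p = 0.035), with 0.84 in other otic cells. The call of Etv4 in dorsal cells was lost without cKO 1 (adjusted p = 0.107) and without control 1 (adjusted p = 0.150). The differences were -1.33 ± 0.18 for Etv5 (adjusted p = 0.00016) and -1.58 ± 0.26 for Etv4 (adjusted p = 0.0012). The inhibitor Spred1 fell in dorsal cells (-1.004 ± 0.10), whereas Spry1 (-0.15 ± 0.17) and Dusp6 (-0.57 ± 0.23) did not pass there. Within dorsal cells 2 of 16 FGF genes rose and 7 fell, against 13.7% and 11.5% of all genes tested, and of these 9 calls those of Etv5 and Spred1 held without each library in turn.

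The gate on thinned counts, with fewer cells, left 1 of the 9 FGF differences, that of Spry1. Those of Etv4 (adjusted p = 0.137), Etv5 (0.149), Fgf18 (0.514), Spred1 (0.716), Dusp6 (0.918), Etv1 (0.915) and Il17rd (0.570) did not pass, and that of Spry2 turned to 0.10. The falls of Etv5 (adjusted p = 0.124) and Spred1 (adjusted p = 0.0637) in dorsal cells did not pass either. With DESeq2, the differences of Spry2 (adjusted p = 0.804), Etv1 (0.224) and Il17rd (0.0505) were lost. The dorsal calls of Etv4 (0.167), Etv1 (0.167), Fgf10 (0.111), Fgf9 (0.0913), Fgfr1 (0.134) and Fgfr2 (0.212) were lost with DESeq2 too. The difference of Spry2 was also lost without cKO 2, without control 1 and without control 2 (adjusted p = 0.260, 0.142 and 0.113).

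**Figure D5:**
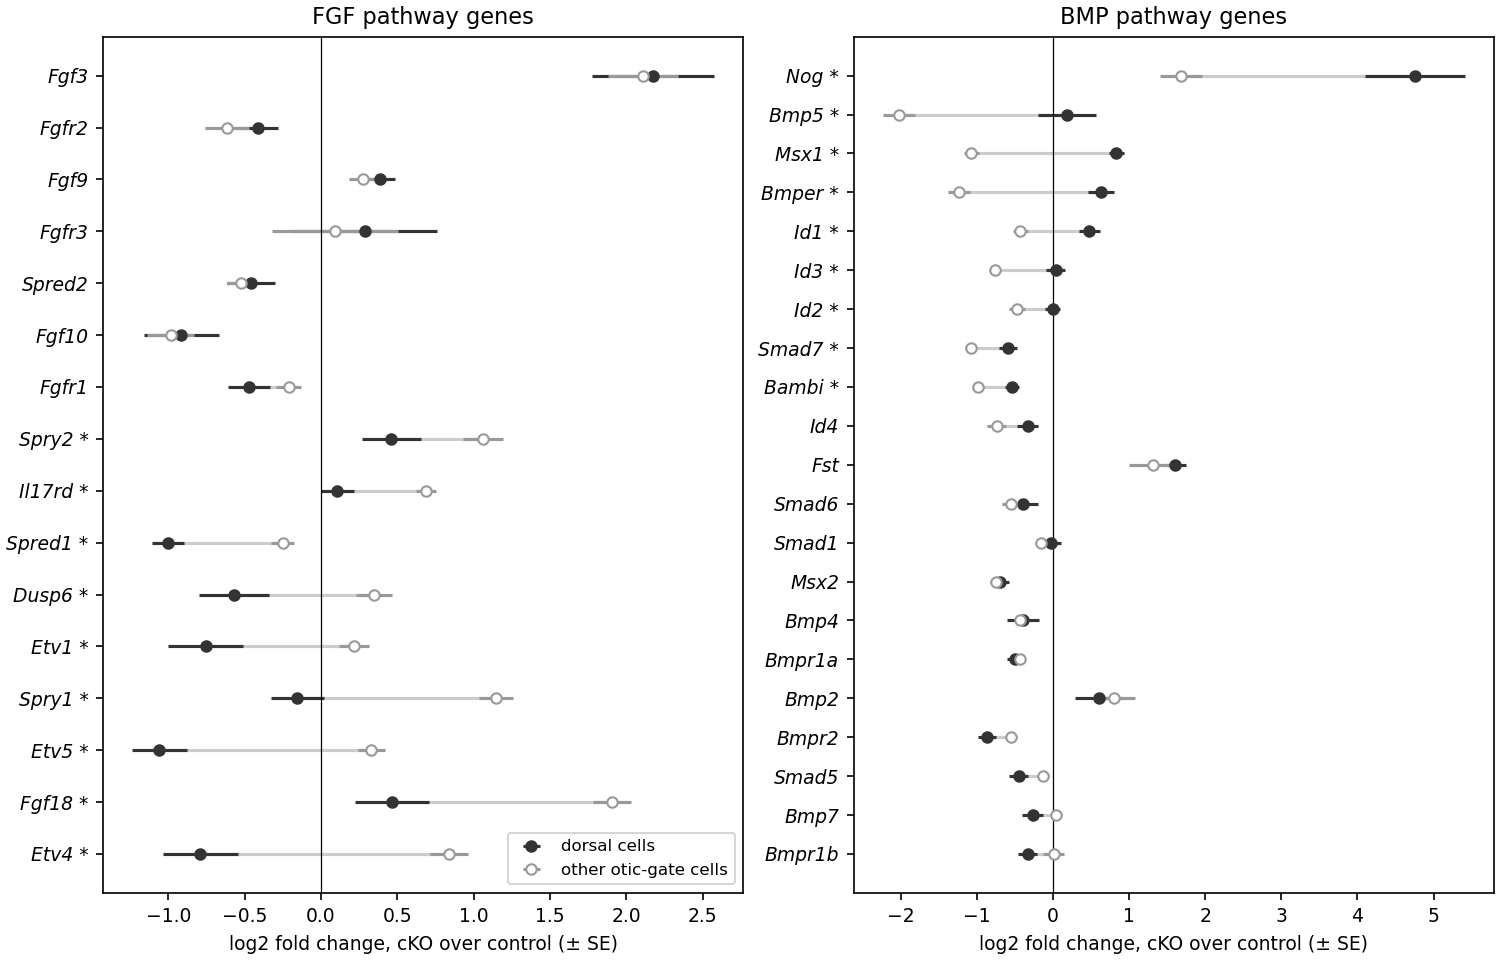
Log2 fold change of cKO over control, with its standard error, for FGF (left) and BMP (right) pathway genes in dorsal (dark) and other otic-gate (open, grey) cells, from edgeR fits on 2 libraries per genotype; a star marks an adjusted p under 0.05 for the difference between the 2 cell populations. All starred FGF genes lie lower and all starred BMP genes higher in dorsal cells.

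The WNT list held 29 tested genes, of which 4 rose, 8 fell and 17 did not pass. Of all genes tested 13.7% rose and 11.5% fell, so that the share of the list that rose was near the background. Of the 12 calls 6 held without each library in turn. Beside Wnt2b and Rspo3, the ligand Wnt7b fell to 10.2 and 11.97 CPM in cKO dorsal cells, against 21.3 and 22.1 CPM in control dorsal cells (-0.94 ± 0.14, edgeR adjusted p = 0.00094). The receptor Fzd8 fell too (-1.01 ± 0.23, adjusted p = 0.0081). The secreted Sfrp2 rose to 23.9 and 28.2 CPM in cKO, against 10.97 and 11.3 CPM in control (1.25 ± 0.14, edgeR adjusted p = 0.00011), and Lgr4, a receptor of R-spondins, rose by 0.82 ± 0.16 (adjusted p = 0.0042). The rise of Wnt3a (2.34 ± 0.41, adjusted p = 0.0022) was lost without cKO 2 (adjusted p = 0.0515). Of the common readouts of WNT activity, Axin2 (-0.31 ± 0.11), Sp5 (0.22 ± 0.10), Lef1 (-0.11 ± 0.11) and Nkd1 (0.09 ± 0.11) did not pass. Wnt6 had 145 and 139 CPM in cKO and 132 and 152 CPM in control dorsal cells (0.00 ± 0.10) and did not pass. With the gate on thinned counts the calls of Sfrp2 (adjusted p = 0.675), Lgr4 (0.202), Fzd8 (0.181) and Wnt7b (0.0682) were lost. DESeq2 lost the calls of Fzd8 (adjusted p = 0.0557), Wnt5a (0.121), Dkk3 (0.0835), Fzd7 (0.274), Tcf7l1 (0.0772) and Notum (0.0840).

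Retinoid genes also moved in both directions. Of 12 tested, 4 rose, 2 fell and 6 did not pass, against 13.7% higher and 11.5% lower of all genes tested, and each call but that of Aldh1a1 held without each library in turn. Carriers were among the rises. Crabp1 had 750 and 542 CPM in cKO dorsal cells and 262 and 224 CPM in control dorsal cells (1.40 ± 0.13, edgeR adjusted p = 3.6e-05), and Crabp2 rose by 0.99 ± 0.09. Of the enzymes that make retinoic acid or its precursor, Rdh10 and Aldh1a3 fell and Aldh1a1 is given above. Rdh10 had 34.0 and 35.6 CPM in cKO and 100 and 127 CPM in control dorsal cells (-1.70 ± 0.12, edgeR adjusted p = 6.1e-06). The falls of Rdh10 and Aldh1a3 were larger than in other otic cells, by 1.27 ± 0.11 (adjusted p = 2.6e-06) and 1.27 ± 0.13 (adjusted p = 1.3e-05) on the log2 scale. In other otic cells Aldh1a3 did not pass (-0.06, adjusted p = 0.619), and with the gate on thinned counts its difference was -0.22 (adjusted p = 0.8805).

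Neurogenic genes were low, and part of them rose. Of 13 tested that the rule did not use, 6 rose and none fell, against 13.7% higher and 11.5% lower of all genes tested, and the rises of Sox3 and Eya2 held without each library in turn. Sox3 had 6.43 and 5.34 CPM in cKO dorsal cells and 0.997 and 1.34 CPM in control dorsal cells (2.31 ± 0.32, edgeR adjusted p = 0.00064; adjusted p = 0.0968 with the gate on thinned counts). Eya2 had 4.57 and 3.41 CPM in cKO and 1.21 and 1.25 CPM in control (1.64 ± 0.36, edgeR adjusted p = 0.0069). Without cKO 2 the adjusted p was 0.125 for Dll1, 0.184 for Fgf3 and 0.117 for Ebf1, and Ebf1 also lost its call without control 1 (adjusted p = 0.115). Neurog1, which starts the otic neuron lineage, had 0.415 and 5.53 CPM in cKO and 0.997 and 0.268 CPM in control dorsal cells. The genotypes overlapped, and without cKO 2 the log2 fold change of Neurog1 turned to -0.67. The gate kept out cells with more than 2 UMIs of Neurod1, and the summed neuron markers given above overlapped between genotypes.

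Among 21 genes of the otic placode and progenitor, 2 rose and 8 fell in dorsal cells, where 13.7% of all genes tested rose and 11.5% fell. Pou3f3, a POU-domain factor, had 3.94 and 5.43 CPM in cKO dorsal cells and 12.6 and 19.4 CPM in control dorsal cells (-1.68 ± 0.24, edgeR adjusted p = 0.00084). In other otic cells it had 31.8 and 33.7 CPM in cKO and 12.5 and 19.3 CPM in control, so that it moved in opposite directions in the populations (difference -2.72 ± 0.16, edgeR adjusted p = 3.2e-08). Sox9 had 217 and 199 CPM in cKO and 363 and 334 CPM in control dorsal cells (-0.75 ± 0.09, edgeR adjusted p = 0.00021).

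Of 16 Notch genes, 5 rose and 3 fell, against 13.7% and 11.5% of all genes tested, and the calls of Lfng and Hes1 held without each library in turn. Lfng, which modifies Notch receptors, had 14.7 and 24.6 CPM in cKO dorsal cells and 5.48 and 6.79 CPM in control dorsal cells (1.76 ± 0.22, edgeR adjusted p = 0.00028; adjusted p = 0.181 with the gate on thinned counts). Hes1, a target, fell by 0.70 ± 0.15 on the log2 scale in dorsal cells (adjusted p = 0.0057), and its log2 fold change in other otic cells was 0.65 (difference -1.26 ± 0.13, adjusted p = 1.5e-05). Of 10 ventral patterning genes none rose and 5 fell, of which Pax2 kept its call without each library in turn. It had 50.6 and 49.1 CPM in cKO and 75.1 and 84.7 CPM in control (-0.68 ± 0.10, edgeR adjusted p = 0.00085; 0.141 with the gate on thinned counts). Of 13 prosensory genes 3 rose and 3 fell, and of 11 canal and crista genes 4 rose and 3 fell, beside the same background. Of 11 hedgehog genes 4 fell, and no call among them held without each library in turn. Of 9 TGF-beta genes Tgfb2 passed, with 1.87 and 3.41 CPM in cKO and 17.2 and 13.0 CPM in control dorsal cells (-2.38 ± 0.25, edgeR adjusted p = 7.9e-05).

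Of 16 genes of glycolysis and hypoxia 7 rose and none fell, with a median log2 fold change of 0.29, against 13.7% higher, 11.5% lower and a median of -0.01 over all genes tested. Vegfa rose by 1.15 ± 0.16 (adjusted p = 0.00071; 0.0824 with the gate on thinned counts) and Gapdh by 0.61 ± 0.07. In the test of the difference from other otic cells none of the 16 passed, where 5.97% of all genes did, so this count is near the background. Of 18 S phase genes 5 rose and 1 fell, and of 18 G2 and M phase genes 1 rose and 4 fell, so that most genes of both lists did not pass; over all genes 13.7% rose and 11.5% fell. Mki67 fell to 105 and 103 CPM in cKO, against 184 and 165 CPM in control (-0.74 ± 0.09, edgeR adjusted p = 0.00033; 0.113 with the gate on thinned counts). Of 17 epithelial adhesion genes 1 rose (Krt18, 0.59 ± 0.09) and 5 fell, of 12 p53 and apoptosis genes 3 rose and none fell, and of 10 dissociation stress genes 1 rose and 1 fell, counts to be read against the same background.

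Among genes with at least 20 CPM, the larger differences between the dorsal and the other otic response came in different shapes. Pax3 (difference 3.20 ± 0.42, edgeR adjusted p = 0.00017), Pcp4 (2.18 ± 0.46, adjusted p = 0.0078) and Wscd1 (1.83 ± 0.17, adjusted p = 3.3e-06) rose more in dorsal cells. The difference of Pcp4 was lost without control 1 (adjusted p = 0.131), and those of Pax3 (adjusted p = 0.262) and Pcp4 (adjusted p = 0.330) with the gate on thinned counts. Nfib fell more in dorsal cells (-1.63 ± 0.16, adjusted p = 5.5e-06; 0.240 with the gate on thinned counts). For Sulf1, Svopl and Cited4 the dorsal cells did not pass a test of genotype and the difference came with a change in the other otic cells, although Cited4 passed in dorsal cells without control 1 (-0.51, adjusted p = 0.02107).

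Svopl shows that last shape. It had 21.8 and 24.2 CPM in cKO dorsal cells and 22.1 and 26.6 CPM in control dorsal cells, and 14.7 and 17.2 CPM in cKO other otic cells and 2.57 and 2.88 CPM in control other otic cells. The difference of log2 fold changes was -2.61 ± 0.13 (edgeR adjusted p = 6.0e-09). Sulf1, which edits heparan sulphate, had 24.3 and 23.3 CPM in cKO dorsal cells and 28.6 and 23.7 CPM in control dorsal cells, with 24.9 and 26.2 CPM in cKO other otic cells and 104 and 106 CPM in control other otic cells. In both cases the level of cKO other otic cells lay nearer to that of dorsal cells than the control level did. The otic cells outside the dorsal gate hold several regions, whose mix may differ between genotypes, and the part of that mix in these differences was not tested.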

How the data were processed

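The deposited files hold raw UMI counts per gene and cell barcode for 4 libraries, per the file headers. Cell Ranger 3.1.0, FastQC 0.11.4, Seurat 4.1.0 and mm10 are listed, per the submitters' processing notes, whereas the matrix headers name Cell Ranger 6.0.1. Cells with at least 1000 genes and at most 10% mitochondrial UMIs were kept. Doublets were scored with Scrublet in scanpy 1.11.5, whose automatic threshold marked 0 to 5 cells a library and was not used; the highest scores were removed in an alternative. Counts were summed per library over dorsal and over other otic cells, since cells are not replicates, and tested with the edgeR 4.0.16 quasi-likelihood test in R 4.3.3 (filterByExpr, TMM, Benjamini-Hochberg adjusted p under 0.05 over all genes tested). A model with library as a block over the 8 sums tested whether genotype effects differed between the populations. The code was tested on simulated data. DESeq2 1.42.0, other gates and filters, a replicate block and leaving out each library were alternatives.

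Genes of the gate were not taken out of the fits or of the counts over all genes tested. They were described without their tests, and the steepest genes and the counts of the gene lists leave them out. Named genes were the 12 steepest rises and 12 steepest falls with at least 20 CPM and no overlap between genotypes, the 8 largest interactions in each direction, the 20 highest and 10 lowest ratios of dorsal over other cells, and called or core members of the gene lists. Some of these genes are not reported here. Members and lists were chosen with earlier results of these data known. Gene positions are those of GENCODE vM21 on mm10, in which 99.8% of 32285 gene IDs were found.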

Additional observations from a re-analysis of the deposited data

Results flagged for a closer look

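In 15 genes the effect of genotype differed between dorsal and other otic cells by the edgeR interaction term, chosen from the 8 largest differences in each direction among genes with at least 20 CPM. Each difference is the log2 fold change in dorsal cells minus that in other otic cells. The larger values in dorsal cells were those of Pax3 (3.20), Pcp4 (2.18), Igfbp5 (2.02), Msx1 (1.92), Sulf1 (1.90), Wscd1 (1.83) and Cdon (1.595). The smaller ones were those of Svopl (-2.61), Cited4 (-2.18), Prr15 (-1.66), Nfib (-1.63), 2610204G07Rik (-1.61), Ifitm3 (-1.48), Sfrp2 (-1.43) and D130058E05Rik (-1.42). For Msx1 the log2 fold changes had opposite signs, 0.83 in dorsal and -1.07 in other otic cells. Sfrp2, a secreted WNT modulator, rose in both populations, by 1.25 in dorsal and 2.76 in other otic cells. The otic cells outside the dorsal gate are a mixture of regions, and the part of their makeup in these differences was not tested.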

How the results depend on the processing

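The number of genes called in dorsal cells was 3196 and changed to 1588 with DESeq2, 561 with the gate on thinned counts, and 1851 to 2955 without 1 library. The interaction count of 849 changed to 261 with DESeq2, 1479 with no low-count filter and 172 with the gate on thinned counts, and was 656 to 877 without 1 library; the count in other otic cells, 5353, was 3222 to 4773 without 1 library. The mean cKO share of 18.3% was 12.5% with Dlx5 at 6 or more UMIs, 7.52% on thinned counts and 5.38% of all cells. The mean control share of 19.2% was 21.8% with Dlx5 at 3 or more, 13.9% with Dlx5 at 6 or more, 21.0% with no limits on Otx1, Otx2, Rorb, Sema3e, Aldh1a2 and Mylk3, 8.65% on thinned counts and 7.89% of all cells. The 48 genes at least 2-fold higher became 97 at 1.5-fold. The cause of these changes was not tested; the gate on thinned counts also held fewer cells. All 23 reported genes with the steepest rises and falls kept their calls without each library in turn.

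Signs turned in genes named with small or uncertain effects. On thinned counts, the dorsal log2 fold changes of Aldh1a1 (-0.20), Gata3 (0.29) and Sulf1 (0.20) and the differences of Dlx6 (-0.11) and Spry2 (0.10) turned. So did those of Ebf1 (-0.14) and Stmn2 (-0.26) with Dlx5 at 6 or more, Stmn2 (-0.93) with the highest doublet scores removed, and Svopl (0.0070) with no limits. Without 1 library, Sulf1 ranged from -0.28 (without control 2) to 0.0064 (without control 1), Svopl from -0.19 (without control 1) to 0.0733 (without control 2; 0.0108 without cKO 1), and Neurog1 from -0.67 (without cKO 2) to 3.66 (without control 1). Same-numbered libraries did not deviate together (correlation -0.037 over 12718 genes); with the replicate number as a block 3740 genes were called in dorsal and 5449 in other otic cells. No such fit was made for the interaction, where library is already a block. Depth limits genes with few UMIs, such as Foxi1, Nog and Wnt2b.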

Other observations

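Pax3 and Pcp4 both rose in dorsal cells of each cKO library. At 15000 UMIs per cell, 9 of 116 dorsal cells of cKO 1 and 19 of 278 of cKO 2 held a UMI of both, and Spearman's rho between them across cells was 0.035 in cKO 1 and -0.036 in cKO 2. Gbx2 and Bmp4 were found together in 0 of 116 and 8 of 278 cKO dorsal cells and in 15 of 333 and 11 of 277 control dorsal cells at that depth.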
